A study of Mus musculus with 4 samples.

Results

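The NRF2 and antioxidant defence genes were described in CT26 and MC38 cells, with and without knockdown of Aurora-A. The group holds 35 of the 51905 genes in the deposited tables, chosen by name from a list of NRF2, its regulators and enzymes of glutathione, thioredoxin, peroxide, NADPH and iron handling, and all 35 were found. CT26 and MC38 are mouse colorectal cancer lines, and each received a lentiviral hairpin that targets either GFP, which served as control (shGFP), or the mouse Aurora-A transcript (shmaurka-1). All 4 cultures were labelled as wild-type colon cells, all carried a hairpin vector that had passed puromycin selection, and RNA was taken 48 h after seeding. The single hairpin against Aurora-A that was sequenced does not separate loss of Aurora-A from other effects of that hairpin. One library was sequenced for each of the 4 conditions, so changes within a line are unreplicated, and the 2 libraries of a line are not replicate cultures of a condition. CT26 was grown in RPMI-1640 and MC38 in high glucose DMEM, so medium and line cannot be told apart.

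NRF2, encoded by Nfe2l2, is a transcription factor that is held in the cytosol and sent for degradation by its partner Keap1. When electrophiles or oxidants modify Keap1, NRF2 accumulates, pairs with small MAF proteins and binds antioxidant response elements in the promoters and enhancers of genes for quinone reduction, glutathione synthesis, thioredoxin recycling, NADPH supply and iron storage. In colorectal and other cancers this programme is known for protecting cells from oxidative stress and from drugs. Much of NRF2 control acts on the protein, which RNA-seq does not measure.

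The core letters of the antioxidant response element, TGACNNNGC, were looked for on both strands in RefSeq promoter windows of GRCm38.p6, the build of the deposited coordinates. Each window runs from 250 bases before a start site to 50 bases after it. Windows were found for 29 of the 35 genes, and 10 of the 29 (34.5%) held the core, against 14.0% of the 27025 genes with a window. Counted by window, 10 of the 39 windows of these genes (25.6%) and 12.4% of all 32851 windows held it. The sequences of the 10 sites are shown because these genes differed between the lines, as given below. Each is written 5′ to 3′ on the strand that reads TGACNNNGC, with the core in capitals and 10 bases on each side.
Nfe2l2, chr2:75704885-75704913, minus strand: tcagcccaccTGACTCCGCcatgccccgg
Srxn1, chr2:152105542-152105570, minus strand: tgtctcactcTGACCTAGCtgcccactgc
Gclm, chr3:122245413-122245441, minus strand: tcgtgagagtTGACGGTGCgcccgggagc
Prdx1, chr4:116685456-116685484, minus strand: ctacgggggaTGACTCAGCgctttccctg
Pgd, chr4:149166061-149166089, minus strand: atttcagagcTGACATTGCactgatcgga
Mgst1, chr6:138140461-138140489, minus strand: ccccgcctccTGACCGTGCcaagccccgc
Me1, chr9:86695902-86695930, minus strand: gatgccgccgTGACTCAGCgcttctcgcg
Txnrd1, chr10:82859104-82859132, minus strand: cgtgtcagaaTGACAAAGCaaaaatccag
Sod1, chr16:90220696-90220724, minus strand: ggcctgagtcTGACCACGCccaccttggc
G6pdx, chrX:74428919-74428947, plus strand: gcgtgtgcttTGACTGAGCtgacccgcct
Prdx1 and Me1 carry the same 9 letters, TGACTCAGC, and in both the core overlaps the AP-1 letters TGANTCA, which 7.81% of all windows hold somewhere. The core begins 133 bases before the start site of Prdx1 and 6 bases before that of Me1. It begins 3 bases after the start site of Pgd and 28 bases after that of Srxn1, so these 2 sites lie in transcribed sequence. The Nqo1 window has no match in these letters. A match is a description of the letters and not evidence of binding.

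Aurka, the targeted gene, dropped from 5724 recovered fragments with shGFP to 1093 with shmaurka-1 in CT26, and from 2300 to 413 in MC38. Library depth was alike, from 22207769 to 23752267 recovered fragments, and mitochondrial genes took 1.25% to 1.45% of them. The labels call CT26 a fibroblast and MC38 an epithelial cell. Fibroblast markers summed to 5168 to 5579 CPM in CT26 and 3887 to 4462 in MC38, most of it Fn1, with Thy1 at 5 fragments or fewer. The 12 epithelial markers summed to 77.9 to 84.7 in CT26, most of it Krt18 and Krt20, and to 3.07 to 3.80 in MC38. Epcam and Cdh1 had at most 6 fragments in any library, so the epithelial label of MC38 is not borne out by its defining markers. Immune markers summed to 18.5 to 27.2 CPM, most of it Cd14, with Ptprc at 3 fragments or fewer, and endothelial markers summed to 3.33 to 11.8.

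Together the 35 genes took 0.729% of the fragments in CT26 shGFP (95% Wilson interval 0.725 to 0.732), 0.690% in CT26 shmaurka-1 (0.687 to 0.694), 1.34% in MC38 shGFP (1.331 to 1.340) and 1.30% in MC38 shmaurka-1 (1.297 to 1.306). Both MC38 libraries therefore lay above both CT26 libraries. These intervals cover counting error only. Ftl1, Fth1 and Sqstm1 supplied 60.6% to 65.4% of that total in every library. Per transcript length, in FPKM (fragments scaled to length and depth by the authors), Ftl1 stood highest of the 35 in every library, at 2331 in CT26 shGFP and 4193 in MC38 shGFP, and Mgst1 in CT26 shmaurka-1 lowest, at 0.197. In bulk RNA, fewer cells with a transcript and less of it in each cell cannot be told apart.

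**Figure D1:**
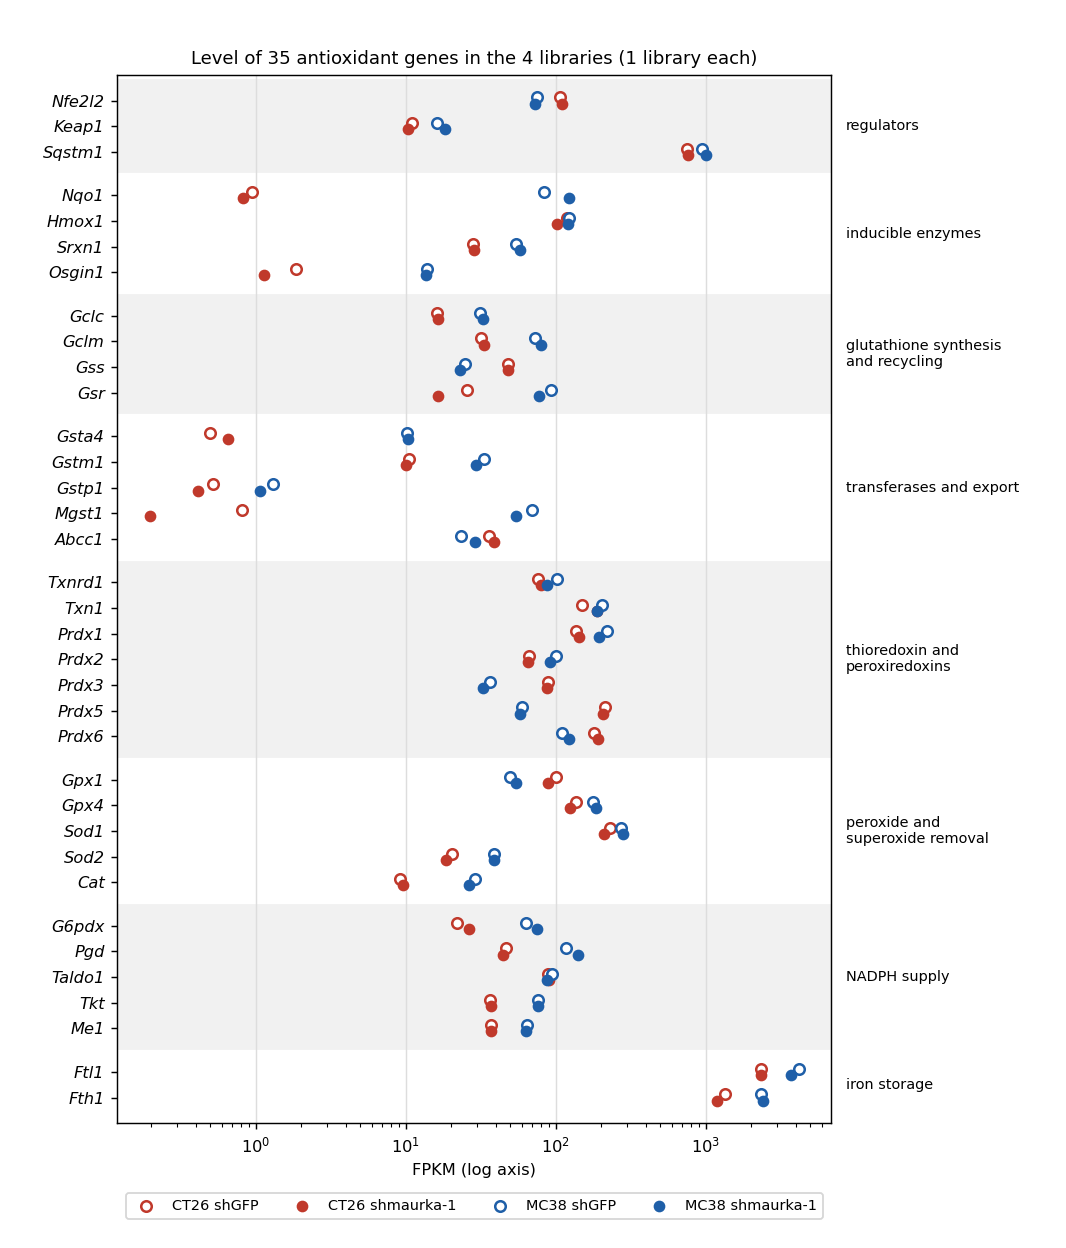
FPKM on a log axis of the 35 genes in each library, ordered by role, with open circles for shGFP, filled circles for shmaurka-1, red for CT26 and blue for MC38 (1 library per point). For most genes the points of a line sit close together, and the widest gaps are between lines, for Nqo1 (0.950 and 0.824 in CT26, 83.2 and 123 in MC38) and Mgst1.

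The lines were compared first, because they differed most. In edgeR's quasi-likelihood test, blocked on knockdown, 25 of the 35 genes were called higher in MC38 and 7 higher in CT26 at a Benjamini-Hochberg adjusted p under 0.05. Over all 13984 genes tested it called 39.6% higher in MC38 and 36.5% higher in CT26, so a call in this comparison is common. The members' share was 71.4% for MC38 and 20.0% for CT26. Past 2-fold as well, 12 genes (34.3%) were higher in MC38 and 3 (8.57%) in CT26, against 24.7% and 17.2% of all genes. Both MC38 counts include Mgst1 and Gstp1. These averaged under 10 counts in CT26 and passed the filter on the mean over all libraries only through MC38, so the filter fixed their direction. Among all genes tested, others below 10 counts in 1 line could pass in the same way. The median log2 difference, CT26 minus MC38, was -0.76 over the 35 genes and -0.04 over all genes. Total-count scaling lowered the fitted log2 differences by 0.34 (median shift -0.339). All 35 kept their direction under it, and it called 28 higher in MC38, with Hmox1, Txn1 and Taldo1 added, and 6 in CT26, with Abcc1 lost, against 51.1% and 25.7% of all genes. Past 2-fold it gave 19 genes in MC38 and 2 in CT26, against 31.3% and 12.0% of all genes.

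**Figure D2:**
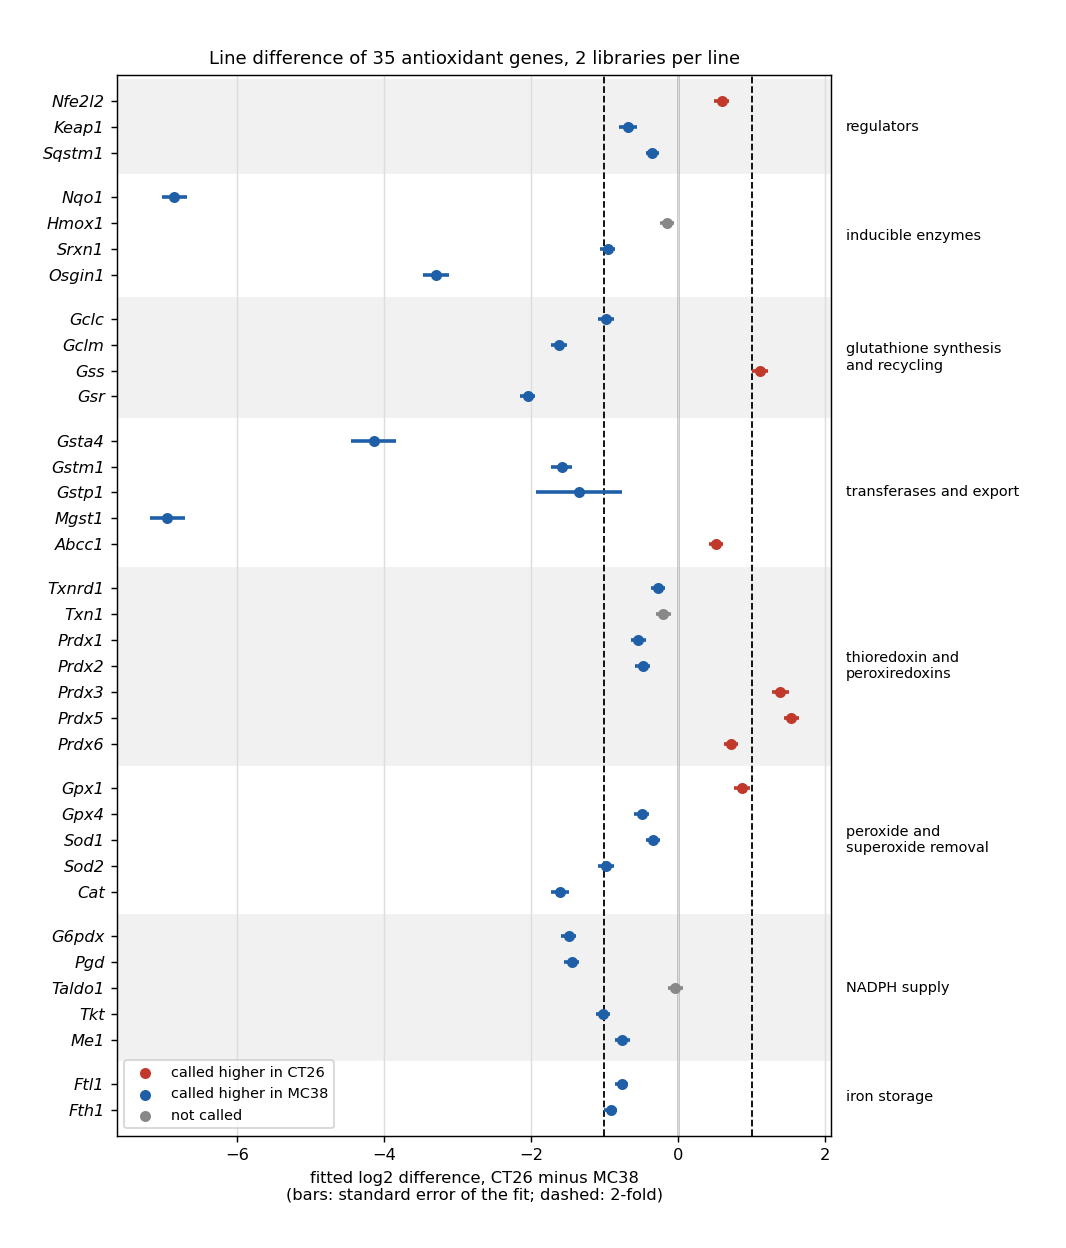
Fitted log2 difference, CT26 minus MC38, of the 35 genes with the standard error of the fit, 2 libraries per line, with dashed lines at 2-fold. Of the 35, 28 points lie below 0, from Taldo1 at -0.03 to Mgst1 at -6.95, and 7 lie above, up to Prdx5 at 1.54.

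Among the regulators, Nfe2l2 was higher in CT26 and its inhibitor Keap1 higher in MC38. The FPKM of Nfe2l2 was 107 in CT26 shGFP, 111 in CT26 shmaurka-1, 74.8 in MC38 shGFP and 73.0 in MC38 shmaurka-1. Its log2 difference was 0.59 ± 0.10 (SE of the fit; edgeR adjusted p = 1.65e-09), a 1.51-fold excess in CT26. The FPKM of Keap1 was 11.1 and 10.4 in CT26 and 16.2 and 18.3 in MC38, a log2 difference of -0.68 ± 0.12 (edgeR adjusted p = 1.64e-08). The 2 genes thus stood in opposite order in the lines. Neither overlapped between the libraries of the lines, but the share of all genes that did the same was not counted. Sqstm1, which encodes p62, an autophagy receptor that binds Keap1 and is itself an NRF2 target, had 753 and 760 in CT26 and 941 and 1002 in MC38, a log2 difference of -0.35 ± 0.09.

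Of 4 enzymes known for their induction by NRF2, 3 were called higher in MC38. Nqo1 (chromosome 8, 107388224 to 107403206), the quinone reductase widely used as a readout of NRF2, had 25 and 20 fragments in the CT26 libraries (shGFP and shmaurka-1), against 2656 and 3826 in the MC38 libraries. The 2 lines were far apart, with a log2 difference of -6.85 ± 0.17, or 115-fold. Osgin1, an oxidative stress-induced growth inhibitor, had 90 and 59 fragments in CT26 and 917 and 899 in MC38, a 9.80-fold difference (log2 -3.29 ± 0.17). Srxn1, encoding sulfiredoxin, which repairs over-oxidised peroxiredoxins, was at 28.3 and 28.7 FPKM in CT26 and 54.1 and 57.9 in MC38, 1.94-fold higher in MC38. Hmox1, the haem-degrading enzyme and a target of both NRF2 and its competitor BACH1, was not called. Its FPKM was 119 and 102 in CT26 and 124 and 122 in MC38, a log2 difference of -0.15 ± 0.10 (edgeR adjusted p = 0.153). Inducible enzymes therefore ranged from no call to over 100-fold within the same 4 libraries.

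The enzymes that make and recycle glutathione split. Gclc and Gclm, the catalytic and modifier subunits of the rate-limiting ligase, were both higher in MC38. The FPKM of Gclc was 16.3 and 16.4 in CT26 and 31.2 and 32.8 in MC38, and that of Gclm 32.0 and 33.3 in CT26 and 72.4 and 79.5 in MC38. Their log2 differences were -0.98 ± 0.11 for Gclc and -1.62 ± 0.11 for Gclm. Gsr (chromosome 8, 33652522 to 33698163), the reductase that regenerates glutathione with NADPH, had 25.7 and 16.6 FPKM in CT26 and 93.9 and 77.0 in MC38, a 4.13-fold difference. Gss, which completes glutathione by adding glycine, went the other way, with 48.4 and 47.9 FPKM in CT26 and 25.0 and 23.2 in MC38. It was 2.17-fold higher in CT26 (log2 1.12 ± 0.11, edgeR adjusted p = 4.09e-23).

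Of the 5 transferase and export genes, 4 were called higher in MC38 and 1 higher in CT26. Of the 4, Mgst1 and Gstp1 averaged under 10 counts in CT26 and passed the filter only through MC38. Mgst1 (chromosome 6, 138140315 to 138156755), a membrane-bound transferase and peroxidase, had 12 and 3 fragments in CT26 and 1360 and 1039 in MC38. The log2 difference was -6.95 ± 0.24, close to that of Nqo1, and it was -8.02 without CT26 shGFP and -6.32 without CT26 shmaurka-1, a library whose value is at the floor of 3 fragments. Gsta4, which conjugates the lipid peroxidation product 4-hydroxynonenal, had 11 and 13 fragments in CT26 and 271 in each MC38 library, a 17.6-fold difference. Gstm1, a cytosolic mu-class transferase, had 299 and 251 fragments in CT26 and 1097 and 966 in MC38, a 2.98-fold difference. Gstp1 was close to the detection limit everywhere, with 7 and 5 fragments in CT26 and 21 and 17 in MC38. Its neighbours Gstp2 and Gstp3 were listed at 0 in every library. Whether reads shared between these genes were dropped was not tested. Abcc1, the exporter of glutathione conjugates, was 1.43-fold higher in CT26, with 35.9 and 38.9 FPKM there and 23.3 and 29.1 in MC38.

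Of the 7 thioredoxin system genes, 3 were called in each direction. Txnrd1, the cytosolic thioredoxin reductase, had 76.3 and 80.4 FPKM in CT26 and 102 and 87.3 in MC38, a log2 difference of -0.27 ± 0.10. Txn1, cytosolic thioredoxin, was not called (log2 -0.20 ± 0.10, edgeR adjusted p = 0.066), and its libraries overlapped, at 149 and 190 FPKM in CT26 and 204 and 187 in MC38. The peroxiredoxins Prdx1 and Prdx2, cytosolic thioredoxin-dependent peroxidases, were 1.45-fold and 1.39-fold higher in MC38. Prdx3, the mitochondrial member, and Prdx5, found in mitochondria, peroxisomes and cytosol, were higher in CT26. Prdx3 had 89.6 and 88.0 FPKM in CT26 and 36.3 and 32.6 in MC38 (log2 1.39 ± 0.12), and Prdx5 had 213 and 207 in CT26 and 59.8 and 57.7 in MC38 (log2 1.54 ± 0.10). Prdx6, which uses glutathione and not thioredoxin, was 1.64-fold higher in CT26.

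Among the enzymes that remove peroxide and superoxide, 4 of 5 were called higher in MC38. Cat, peroxisomal catalase, had 9.24 and 9.69 FPKM in CT26 and 29.0 and 26.5 in MC38, a 3.05-fold difference. Sod2, the mitochondrial superoxide dismutase, had 20.3 and 18.6 in CT26 and 38.9 and 38.6 in MC38, a 1.97-fold difference. Sod1, the cytosolic dismutase, and Gpx4, the peroxidase that reduces lipid hydroperoxides in membranes, were 1.27-fold and 1.41-fold higher in MC38. Gpx1, the main cytosolic glutathione peroxidase, was 1.82-fold higher in CT26, with 101 and 89.5 FPKM there and 49.4 and 54.8 in MC38. As for Nfe2l2, Gss, Abcc1, Prdx3, Prdx5 and Prdx6, both CT26 libraries lay above both MC38 libraries. The share of all genes that did so was not counted.

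Of the 5 members of NADPH supply 4 were called higher in MC38, as were both ferritin subunits. G6pdx, which catalyses the entry step of the pentose phosphate pathway, had 22.0 and 26.7 FPKM in CT26 and 63.6 and 75.5 in MC38, a log2 difference of -1.49 ± 0.10. Pgd, the next NADPH-producing enzyme, had 46.9 and 44.6 in CT26 and 118 and 142 in MC38 (log2 -1.45 ± 0.10). Of the pathway's non-oxidative enzymes, Tkt was 2.03-fold higher in MC38 and Taldo1 was not called (log2 -0.03 ± 0.10, edgeR adjusted p = 0.774). Me1, the cytosolic malic enzyme, was 1.69-fold higher in MC38. The ferritin subunits Ftl1 and Fth1 were 1.70-fold and 1.88-fold higher in MC38. The pseudogenes Ftl1-ps1 and Ftl1-ps2 together held 2060 to 3570 fragments, against 38500 to 93383 for Ftl1.

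**Figure D3:**
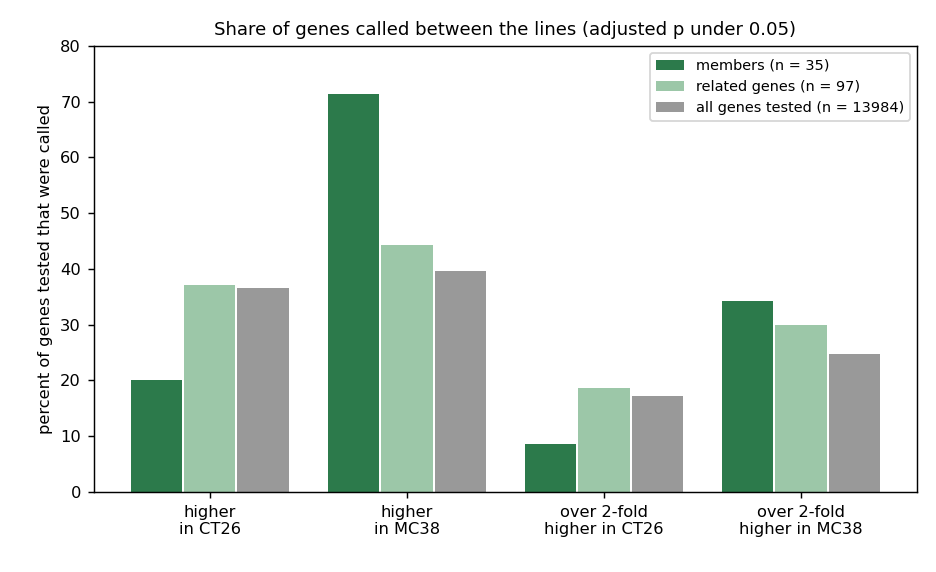
Percent of genes tested that edgeR called between the lines (bars from 0), for the 35 members, 97 related genes and all 13984 genes, in each direction and past 2-fold. The members' bar is above that of all genes for MC38 (71.4% against 39.6%) and below it for CT26 (20.0% against 36.5%).

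Of the 10 genes whose promoter sequences are printed above, 9 were called higher in MC38 and 1, Nfe2l2, higher in CT26. Of the 19 with a window but no core, 13 were called higher in MC38, 4 higher in CT26 and 2, Txn1 and Taldo1, neither. Mgst1 and Nqo1, the genes with the widest gaps between the lines, fall on different sides of this split. Of the 6 without a window, 3 were called higher in MC38, 2 higher in CT26 and 1, Hmox1, neither. Higher in MC38 were 71.4% of the 35 genes and 39.6% of all genes tested. Calls were not counted over all genes with or without the core, so a link between core and call was not tested.

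Some of the smaller differences between the lines were not called under every setting. The call of Abcc1 was lost with total-count scaling (log2 0.18, edgeR adjusted p = 0.0922), that of Gstp1 with DESeq2 (adjusted p = 0.427) and without a filter on low counts (edgeR adjusted p = 0.0648), and that of Txnrd1 with DESeq2 (adjusted p = 0.0549). Fits that left out 1 library also had to drop the knockdown block, so the library and the block cannot be told apart in them. In these, Sqstm1 was not called without CT26 shmaurka-1 (edgeR adjusted p = 0.0598) or MC38 shmaurka-1 (0.0625), Gstp1 without CT26 shmaurka-1 (0.0711) or MC38 shGFP (0.0915), and Abcc1 without MC38 shGFP (0.0509). Without CT26 shGFP, CT26 shmaurka-1 or MC38 shGFP the edgeR adjusted p of Txnrd1 was 0.151, 0.0776 and 0.301, and without CT26 shmaurka-1, MC38 shGFP or MC38 shmaurka-1 that of Sod1 was 0.111, 0.0821 and 0.099. Txn1 was called higher in MC38 without CT26 shmaurka-1 (edgeR adjusted p = 0.0273) and with only genes at a mean of 50 counts or more (log2 -0.23, edgeR adjusted p = 0.0483), and leaving out 1 library moved its log2 difference over -0.385 to -0.022. Dropping the block alone kept the calls of Sqstm1, Gstp1, Abcc1, Txnrd1 and Sod1, at adjusted p values from 0.00235 for Abcc1 to 0.0417 for Txnrd1 (edgeR). Nfe2l2, Keap1, Sqstm1, Gclm, Gss, Gsr, Abcc1, Txnrd1, Prdx2, Prdx5, G6pdx, Tkt, Me1 and Ftl1 share their deposited locus with at least 1 other gene, so their values are uncertain. The libraries were prepared to keep the strand, but whether counting used it is not given in the sources used here.

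Knockdown of Aurora-A left this group close to its control level in both lines. Of the 33 genes that averaged 10 counts or more in both lines, 0 passed the study's thresholds of over 1.5-fold or under 0.6-fold. Among all 11928 genes compared, 3.2% were over 1.5-fold and 2.58% under 0.6-fold in CT26, and 2.47% and 1.03% in MC38, so 0 of 33 is close to the background. Their median log2 fold changes were -0.036 (CT26) and 0.005 (MC38), against -0.005 and -0.001 over all genes. Within 1.25-fold of control lay 29 of the 33 genes in CT26 (78.0% of all genes) and 32 in MC38 (82.8% of all genes). The 2 genes left out for low counts were Mgst1 and Gstp1.

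**Figure D4:**
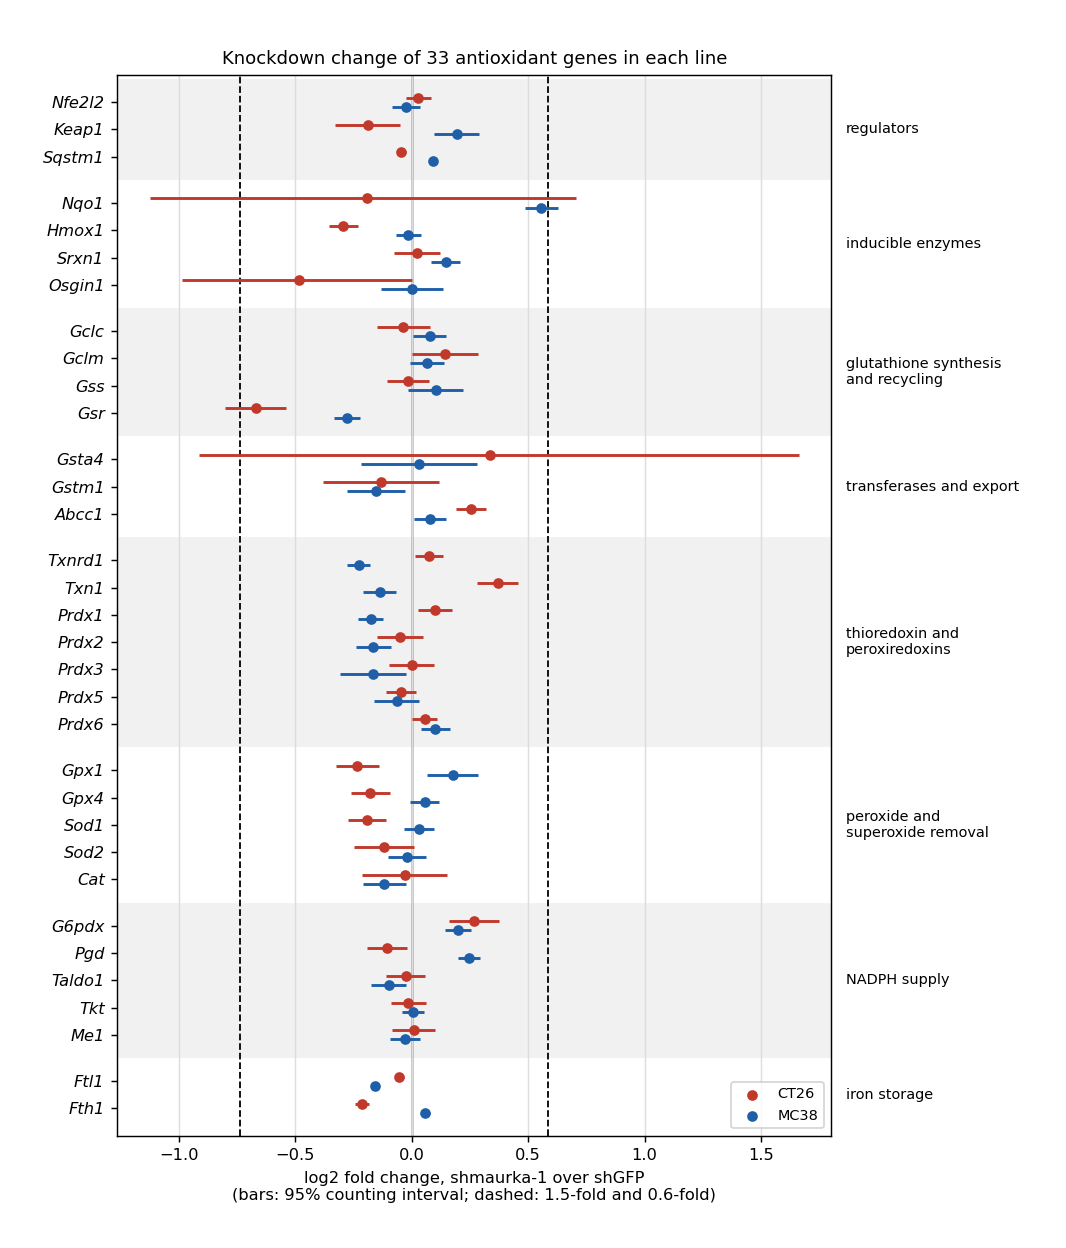
Log2 fold change of shmaurka-1 over shGFP in CT26 (red) and MC38 (blue) for the 33 genes compared, with 95% counting intervals from 1 library against 1 and dashed lines at 1.5-fold and 0.6-fold. No point passes a dashed line, Gsr in CT26 (-0.67) and Nqo1 in MC38 (0.56) lying nearest, and the widest bars are the low-count genes Nqo1, Osgin1 and Gsta4 in CT26.

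Over both lines, with line as a block, edgeR called 1 of the 33 genes, Gsr, which was lower after knockdown. Over all genes the same test called 1.67% higher and 1.12% lower. Gsr went from 1297 to 749 fragments in CT26, a log2 fold change of -0.67 (95% counting interval -0.80 to -0.54), and from 5717 to 4617 in MC38, a log2 fold change of -0.28 (-0.34 to -0.22). The fitted log2 fold change was -0.46 ± 0.10 (edgeR adjusted p = 0.00107), a decrease in both lines that stayed inside the 0.6-fold threshold. It was not called by DESeq2's Wald test (adjusted p = 0.214), by limma on log2(FPKM + 1) (adjusted p = 0.39) or by edgeR without the line block (adjusted p = 1.0), the alternatives ranging from 0.000435 to 1.0, and the edgeR test has 1 residual degree of freedom and takes its spread from the trend over all genes. Counting intervals do not cover differences between cultures.

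Nqo1 passed the threshold in neither line and was not called (fitted log2 fold change 0.46 ± 0.15, edgeR adjusted p = 0.0533). In MC38 it went from 2656 to 3826 fragments, 1.47-fold (log2 0.56, counting interval 0.48 to 0.63). In CT26, 25 and 20 fragments gave a log2 value of -0.19 with an interval of -1.13 to 0.71, so a change of the MC38 size was not detectable there at this depth. With recovered whole fragments in place of scaled counts, the edgeR adjusted p of Nqo1 was 0.0494, the lowest of its alternatives, which reached 1.0. G6pdx was the only other gene with an unadjusted p under 0.05, at a log2 fold change of 0.27 in CT26 and 0.20 in MC38 (edgeR adjusted p = 0.285).

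The regulators moved little on knockdown. Nfe2l2 had log2 fold changes of 0.03 in CT26 (counting interval -0.03 to 0.08) and -0.03 in MC38 (-0.08 to 0.04). Keap1 stood at -0.19 (-0.33 to -0.05) in CT26 and 0.19 (0.09 to 0.29) in MC38, and Sqstm1 at -0.05 and 0.09. Of the inducible enzymes, Hmox1 was at -0.29 (-0.36 to -0.23) in CT26 and -0.02 (-0.07 to 0.04) in MC38, Srxn1 at 0.02 and 0.15, and Osgin1 at -0.48 (-0.99 to 0.00) in CT26, from 90 to 59 fragments, and 0.00 in MC38.

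In the glutathione genes other than Gsr, log2 fold changes ran from -0.04 for Gclc in CT26 to 0.14 for Gclm in CT26, with Gss at -0.02 and 0.10. Abcc1 was at 0.25 (0.19 to 0.32) in CT26 and 0.08 (0.01 to 0.15) in MC38. The deposited FPKM reversed the size order of these Abcc1 values, with ratios of 1.08 in CT26 and 1.25 in MC38. Gstm1 was at -0.13 and -0.15, and Gsta4 at 0.34 in CT26, on 11 and 13 fragments, and 0.03 in MC38. Mgst1, not tested, had 1360 and 1039 fragments in MC38, a log2 value of -0.36 (-0.48 to -0.24), and had 12 and 3 fragments in CT26.

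Of the thioredoxin group, 3 genes lay on opposite sides of 0 in the lines beyond their counting intervals, as did 7.44% of all 11928 genes tested. That share was not matched for depth, which sets the width of the intervals. No gene of the group was called over both lines. Txn1 had a log2 fold change of 0.37 (0.28 to 0.46) in CT26, the highest there of the 33, and -0.14 (-0.21 to -0.07) in MC38. Txnrd1 was at 0.07 (0.02 to 0.13) and -0.23 (-0.28 to -0.18), and Prdx1 at 0.10 (0.03 to 0.17) and -0.18 (-0.23 to -0.12). Prdx2, Prdx3 and Prdx5 lay between -0.17 and 0.00 in both lines, and Prdx6 at 0.06 and 0.10. Whether such gaps exceed those between cultures was not tested.

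All 5 peroxide and superoxide genes lay below 0 in CT26, between -0.23 for Gpx1 and -0.03 for Cat, whose counting interval was -0.21 to 0.15 and whose FPKM went the other way, with a ratio of 1.05. In MC38 they lay between -0.12 for Cat and 0.18 for Gpx1, and none was called over both lines. Pgd was at -0.11 (-0.19 to -0.02) in CT26 and 0.25 (0.20 to 0.29) in MC38, while Taldo1, Tkt and Me1 lay between -0.10 and 0.01. Fth1 was at -0.22 (-0.25 to -0.19) in CT26 and 0.06 (0.04 to 0.08) in MC38, and Ftl1 at -0.05 and -0.16. Of the 33 genes, 15 had the same sign in both lines and 18 opposite signs, which 43.1% of all genes tested had.

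The rest of these pathways was read from 115 further genes, of which 88 could be tested for knockdown and 97 between the lines. Over both lines 3 were called higher after knockdown and 2 lower, or 3.41% and 2.27%, against 1.67% and 1.12% of all genes tested. Txnrd2, the mitochondrial thioredoxin reductase, had a fitted log2 fold change of 1.34 ± 0.22, at a locus listed for 6 genes. By line it was 0.80 in CT26, from 145 to 233 fragments, and 2.17 in MC38, from 36 to 163. The fitted value of Txnrd2 therefore describes neither line on its own. Akr1b3, aldose reductase, had 0.49 ± 0.09 and Rpia, a pentose phosphate isomerase, 0.48 ± 0.14. Txnip, which binds and inhibits thioredoxin, had -0.66 ± 0.10, with 7157 and 5121 fragments in CT26 and 6938 and 3472 in MC38, and Mgst3, a microsomal transferase, had -0.83 ± 0.20. Between the lines 43 were called higher in MC38 (44.3%) and 36 in CT26 (37.1%), against 39.6% and 36.5% of all genes, with a median log2 difference of -0.04, as over all genes, beside -0.76 over the members.

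Past 2-fold, the related genes with the largest fitted differences toward MC38 were Ggt7, Cbr3, Gstk1, Sesn3 and Gstt3. All averaged under 10 counts in CT26 and passed the filter only through MC38, so the filter fixed their direction. Ggt7, a glutamyltransferase homologue at a locus shared by several genes, had 1 fragment in each CT26 library and 1658 and 1838 in MC38. Cbr3, a carbonyl reductase, had none in CT26 and 181 and 147 in MC38. Gstk1, a mitochondrial and peroxisomal transferase, had none in CT26 and 43 and 44 in MC38. With no CT26 fragment, the fitted values of Cbr3 and Gstk1 depend on the prior count and their ranks are uncertain. Ggt7, Sesn3 and Gstt3 had 5 fragments or fewer in each CT26 library, so their ranks are uncertain too. Sesn3, a stress-induced sestrin, had 3 and 5 fragments in CT26 and 625 and 589 in MC38, and Gstt3, a theta-class transferase, 0 and 3 against 285 and 223. Toward CT26 they were Ephx1, Maff, Aldh3a1, Me3 and Mgst2. Ephx1, microsomal epoxide hydrolase, had 1022 and 910 fragments in CT26 and 17 and 11 in MC38. Maff, one of the small MAF partners of NRF2, had 7867 and 6586 in CT26 and 155 and 123 in MC38, a log2 difference of 6.03 ± 0.13. Aldh3a1, an aldehyde dehydrogenase, had 242 and 411 in CT26 and 17 and 11 in MC38. Among the related genes named, detoxifying enzymes stood in both directions, in a list that was chosen to hold such enzymes.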

How the data were processed

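RNA-seq of 4 cultures was analysed from the authors' gene tables. The authors deposited estimated counts (expected counts that need not be whole), already scaled between libraries, and FPKM. The submitters' processing notes name Trimmomatic 0.36, HISAT2, Cuffdiff, Cufflinks 2.2.1 and GRCm39, but 99.9% of 32350 named loci overlapped their GRCm38.p6 gene and 18.1% their GRCm39 gene, so the coordinates are GRCm38. Dividing by a step per library gave whole fragments (within 0.05) for 96.97% to 97.59% of values. Fold changes used TMM-scaled counts plus 1 (edgeR 4.0.16, R 4.3.3), TMM being computed over the genes tested, with exact conditional binomial 95% intervals on fragments. edgeR's quasi-likelihood test used rounded counts, genes averaging 10 counts or more (within both lines for knockdown, over 4 libraries for line) and Benjamini-Hochberg adjustment over all genes tested. DESeq2 1.42.0, limma 3.58.1 on log2(FPKM + 1), other scalings, filters and pseudocounts were alternatives, and TMM over all genes was added after seeing the data. Scripts were tested on simulated data.

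The members and lists were chosen with earlier results of these data known. All 35 members are named. Of the related genes, up to 5 in each direction with the largest fitted change among those called (and past 2-fold between lines) are named. Nothing says that cultures of a line were independent, so p-values do not cover differences between cultures. Both main edgeR fits, for line and for knockdown, gave a gene's own variation between libraries no weight. They used in its place a value fitted across all genes tested. The edgeR p-values and standard errors of single genes in these fits therefore do not measure how much that gene varied between libraries. Promoter windows came from RefSeq (GRCm38.p6) and matched by symbol, 29 of 35.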

Additional observations from a re-analysis of the deposited data

Results flagged for a closer look

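For 8 of the 33 genes the libraries of the lines moved in opposite directions after knockdown, each beyond its own counting interval, and this gap was not tested because each condition has 1 library. Of all 11928 genes tested, 7.44% did the same, a share not matched for depth, which sets the width of the intervals. By sign alone, 18 of the 33 genes and 43.1% of all genes tested moved in opposite directions. The difference in log2 fold change, CT26 minus MC38, was -0.38 for Keap1, -0.41 for Gpx1, -0.35 for Pgd and -0.27 for Fth1, which were lower in CT26 and higher in MC38. It was 0.51 for Txn1, 0.30 for Txnrd1 and 0.27 for Prdx1, which were higher in CT26 and lower in MC38. It was -0.13 for Sqstm1, whose CT26 value turned to 0.01 with the deposited FPKM.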

How the results depend on the processing

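Over 1018 alternative values, 967 kept their direction and side of the threshold or moved by less than the counting error. Without a filter on low counts 1 gene, Mgst1 with 12 and 3 fragments, was under 0.6-fold in CT26. No gene was called lower after knockdown (0) by DESeq2's Wald test, by limma on log2(FPKM + 1) or without the cell line block, and at an unadjusted p under 0.05 these gave 1, 2 and 0 genes. With recovered whole fragments 1 gene, Nqo1, was called higher. Total-count scaling gave 19 genes over 2-fold higher in MC38 in place of 12, and 2 higher in CT26 in place of 3, with Gss (log2 0.78) below 2-fold, where it put 31.3% and 12.0% of all genes past 2-fold. With the deposited FPKM, at a pseudocount of 1 or 0.1, the CT26 log2 fold changes of Sqstm1 and Ftl1 turned to 0.013 and 0.002, and 6 other genes in CT26 and 2 in MC38, whose counting intervals include 0, also changed sign. Neither Hmox1 nor Taldo1 was called between the lines, but total-count scaling called both higher in MC38 (log2 -0.49 and -0.37, edgeR adjusted p = 9.17e-07 and 0.000505), and leaving out 1 library moved their log2 differences over -0.297 to 0.003 (above 0 without CT26 shmaurka-1) and -0.084 to 0.022 (above 0 without MC38 shGFP). The cause was not tested. Leaving out 1 library, in fits that also lack the knockdown block, gave 22 to 24 genes higher in MC38 and 6 to 7 in CT26. Without the block alone the counts were 25 and 7. In the knockdown fit, leaving out 1 library leaves no residual degrees of freedom. The labels give no replicate numbers, and the line block is what pairs the libraries of a line. Depth limits what can be said of Nqo1, Mgst1, Gsta4 and Gstp1 in CT26, at 3 to 25 fragments.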
